A study of Mus musculus with 9 samples.

Results

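The 10 genes described below encode the NF-kappaB transcription factor subunits and proteins grouped here as inhibitors of the pathway. The 5 subunit genes are Nfkb1, Nfkb2, Rel, Rela and Relb, and the 5 inhibitor genes are Nfkbia, Nfkbib, Nfkbie, Nfkbiz and Tnfaip3. They were taken by symbol from a raw count table of 45664 gene symbols, all 10 were found there, and all 10 passed the filter on low counts (edgeR's filterByExpr, which kept 13067 genes). The table comes from microglia, which are the brain's own macrophages, that were sorted as live cells with CD11b and low CD45 from the visual cortex of both hemispheres of single male C57BL/6 mice, and RNA was sequenced as 1 library per mouse. The 4 ethanol mice received 1.8 g of ethanol per kg by subcutaneous injection, 2 injections a day given 2 h apart (3.6 g per kg per day, 20% v/v in saline), from postnatal day 4 to postnatal day 9, and were collected at 35, 35, 30 and 30 days (ethanol 1 to 4). The 5 saline mice received the same volume of saline over the same days and were collected at 36, 30, 35, 29 and 30 days (saline 1 to 5). The older mice (35 or 36 days) were ethanol 1, ethanol 2, saline 1 and saline 3, and the younger mice (29 or 30 days) were ethanol 3, ethanol 4, saline 2, saline 4 and saline 5. The labels give 3 litters in all but do not tie mice to them.

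NF-kappaB factors are dimers of Rel family proteins that wait in the cytoplasm, bound by IkB proteins, until a kinase complex marks the IkB protein for destruction. The freed dimers enter the nucleus and switch on inflammatory and survival genes, among them the genes of their own inhibitors, which closes a negative feedback loop. In microglia this pathway carries signals from Toll-like receptors and from cytokines such as TNF and interleukin 1. Transcript levels report on the amounts of these components that can be made, not on where the proteins are or whether they are active.

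The kappaB motif, the DNA letters that NF-kappaB dimers bind, was searched for in promoters of these genes. Promoter windows of 250 bases before to 50 bases after the transcription start were read from RefSeq on GRCm38.p6 for 7 of the 10 genes (Nfkb2, Rel, Rela, Nfkbia, Nfkbib, Nfkbie and Tnfaip3), and both strands were searched. The kappaB decamer consensus was found in windows of 5 of these 7 genes, and 8.46% of all 32851 promoters in the same reference held it. A looser form, GGGNNNNNCC, of which every consensus match is also a match, was found in windows of 6 of the 7 genes and in 50.8% of all promoters. Nfkb2 has 3 windows and Tnfaip3 has 2, so these genes had more bases in which to match than a single promoter. A match is a run of letters and not a measured binding site. The first window of each gene with a consensus match is shown at each match, 30 bases on the strand of the gene from 5′ to 3′, with the matched letters in capitals. Where matches overlap, or a match reads the same on the other strand, they are shown once.
Nfkb2, chr19:46304688-46304717, plus strand, match at -39 to -29: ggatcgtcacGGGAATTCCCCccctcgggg
Nfkb2, chr19:46304716-46304745, plus strand, match at -11 to -2: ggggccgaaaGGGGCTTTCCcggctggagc
Rel, chr11:23771042-23771071, minus strand, match at -92 to -82: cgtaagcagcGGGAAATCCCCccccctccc
Nfkbia, chr12:55492657-55492686, minus strand, match at -29 to -20: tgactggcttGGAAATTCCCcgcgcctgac
Nfkbie, chr17:45555584-45555613, plus strand, match at -106 to -97: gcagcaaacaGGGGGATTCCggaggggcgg
Tnfaip3, chr10:19015516-19015545, minus strand, match at -125 to -116: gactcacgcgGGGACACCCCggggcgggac
Tnfaip3, chr10:19015403-19015432, minus strand, match at -12 to -3: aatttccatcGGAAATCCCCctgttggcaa

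The whole stretch before the start of Nfkbia is shown because this gene varied most between the mice. It runs over 250 bases, chr12:55492648-55492897 on GRCm38.p6, minus strand, 5′ to 3′, with the consensus match in capitals.
Nfkbia: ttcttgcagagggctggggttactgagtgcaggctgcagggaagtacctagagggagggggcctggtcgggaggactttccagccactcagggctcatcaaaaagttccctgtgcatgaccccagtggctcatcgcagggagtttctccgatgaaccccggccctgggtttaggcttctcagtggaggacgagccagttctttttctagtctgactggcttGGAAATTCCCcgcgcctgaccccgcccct

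Library totals ranged from 12816198 to 28859244 counts. The lowest count of any of the 10 genes in any library was 152, for Nfkbiz in ethanol 1 (95% Poisson interval 129 to 178, counting error only), a counting error of 8.11% for that value beside a spread of 18.4% between the 9 libraries (SD over mean). The libraries carried microglial transcripts: 9 defining genes summed to between 53813 and 63930 CPM (counts relative to the scaled library total) in ethanol mice and between 53742 and 61447 CPM in saline mice. Of the marker lists of other cell types, that of lymphocytes summed to at most 0.336 CPM in any library, with Cd3e, Cd3g and Nkg7 at 0 in all 9, and that of monocytes and neutrophils to between 4.69 and 16.0 CPM, with S100a8, S100a9 and Retnlg at 0. Border macrophage markers summed to 39.1 to 91.2 CPM in ethanol mice and 48.3 to 81.6 CPM in saline mice, endothelial and pericyte markers to 49.5 to 68.3 CPM in ethanol mice and 60.9 to 70.7 CPM in saline mice, and oligodendrocyte markers to 230.1 to 262 CPM in ethanol mice and 198 to 258 CPM in saline mice. Mrc1 was the largest part of each border macrophage sum, at 37.1 to 89.0 CPM, and the other markers of that list had at most 2.52 CPM each. Pecam1 was the largest part of each endothelial and pericyte sum, at 48.4 to 69.7 CPM. Cldn5, Flt1, Tek and Rgs5 of that list had at most 0.395 CPM each. A pair of libraries stood apart. In ethanol 2, 698 of 8477 genes with a mean of at least 10 CPM were more than 2-fold below the mean of the other libraries, against 1 to 44 genes in each of the others. In saline 1, neuronal markers summed to 3.64 CPM and astrocyte markers to 4.03 CPM, against 75.3 to 292 CPM and 59.0 to 179 CPM in the other libraries. Kif5a was the largest part of each neuronal sum, at 1.46 CPM in saline 1 and 60.6 to 255 CPM in the other libraries. The other neuronal markers had at most 12.4 CPM each. Ethanol 2 was the lowest of the 9 libraries for Nfkb2, Rel and Nfkbiz and the highest for Rela and Nfkbib, and saline 1 was the highest for Relb, Nfkbiz and Tnfaip3.

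In GENCODE M21 on GRCm38 the 10 symbols are protein-coding genes with 1 locus each. The subunit genes lie at chr3:135584655-135691547 (Nfkb1, minus strand), chr19:46304320-46312385 (Nfkb2, plus strand), chr11:23736847-23770970 (Rel, minus strand), chr19:5637483-5648130 (Rela, plus strand) and chr7:19606217-19629438 (Relb, minus strand). The inhibitor genes lie at chr12:55489410-55492647 (Nfkbia, minus strand), chr7:28758251-28767512 (Nfkbib, minus strand), chr17:45555703-45563169 (Nfkbie, plus strand), chr16:55811375-55838899 (Nfkbiz, minus strand) and chr10:19000910-19015657 (Tnfaip3, minus strand). To compare levels between genes, CPM were divided by the length of the longest protein-coding transcript of each gene in GENCODE M21. On this scale Nfkbia, the gene of IkB-alpha, the classical inhibitor that is broken down and remade at each round of signalling, had the highest mean level at 76.2 ± 22.1 CPM per kb (SD, n = 9 libraries). Rela, which encodes p65, the main activating subunit, followed at 73.3 ± 3.78 CPM per kb, and Nfkbia was above Rela in 3 of 9 libraries. Nfkb1, the gene of p105 and its product p50, which pairs with p65, stood at 43.7 ± 3.65 CPM per kb and was below Rela in all 9 libraries. The levels of Tnfaip3, at 26.3 ± 3.44 CPM per kb, and Nfkbie, at 25.4 ± 1.24 CPM per kb, were not apart, with Tnfaip3 higher in 5 of 9 libraries. Lower down came Relb at 20.0 ± 2.08, Rel at 15.9 ± 2.47, Nfkbib at 13.4 ± 1.58 and Nfkb2 at 11.7 ± 1.11 CPM per kb, where each gene was above the next in 8 of 9 libraries. Nfkbiz was lowest at 3.55 ± 0.653 CPM per kb, and every library held less of it than of Nfkb2.

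**Figure D1:**
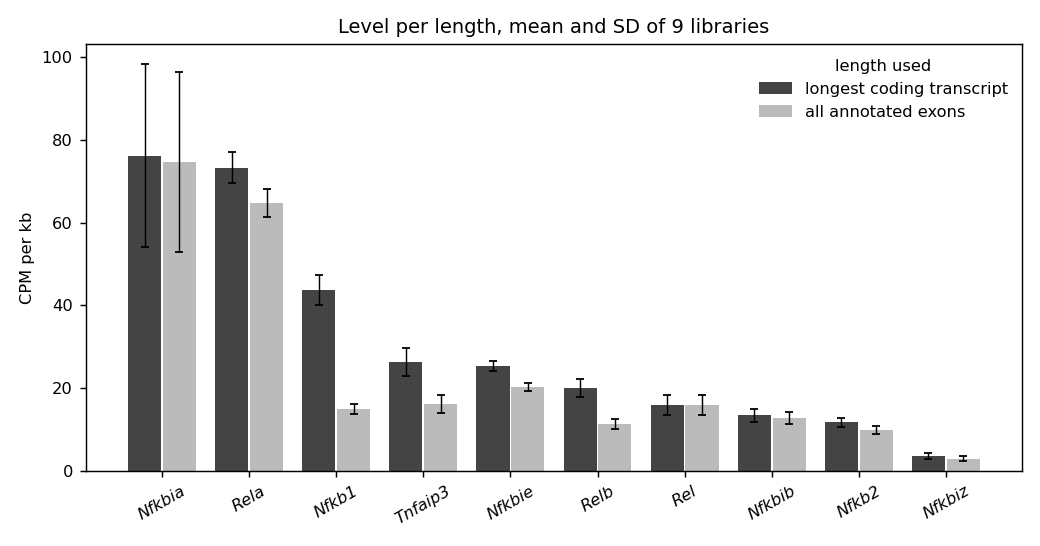
Level of each gene in CPM per kb, with bars for the mean and error bars for the SD of the 9 libraries, divided by the longest protein-coding transcript (dark) or by all annotated exons (light). Nfkbia and Rela lead with either length, Nfkbiz is lowest, and Nfkb1 drops most with all exons, to 14.9 CPM per kb against 43.7 CPM per kb with the longest transcript.

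By this measure Rela made up 44.5 ± 1.97% of the summed subunit transcripts and Nfkb1 26.5 ± 1.55% (SD, n = 9). Relb, the partner of p52 in the alternative pathway, made up 12.1 ± 0.945%, Rel, which encodes c-Rel, 9.66 ± 1.59%, and Nfkb2, the gene of p100 and p52, 7.14 ± 0.735%. In no library did Relb exceed 12.9% or Nfkb2 exceed 8.29%. The length used matters most for Nfkb1: over the union of all its annotated exons its level was 14.9 ± 1.25 CPM per kb, which gave it rank 6 instead of rank 3 and lowered its share to 12.8 ± 0.932%, while that of Rela was 55.5 ± 2.41%. Other orders changed as well. Over all annotated exons Rel made up 13.6 ± 2.14% and Relb 9.71 ± 0.841% of the subunit transcripts, and Nfkb2 reached at most 9.68%. Relb, at 11.4 CPM per kb, then had a lower mean than Rel and Nfkbib, and Nfkbie was above Tnfaip3 in all 9 libraries. Nfkbia and Rela kept the 2 highest means and Nfkb2 and Nfkbiz the 2 lowest with either length.

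The genes differed in how steady they were between mice. Nfkbie and Rela had the smallest spread, an SD of log2 CPM of 0.07 over the 9 libraries for each, which is below that of all but 1.97% and 2.82% of the 8477 genes with at least 10 CPM. The median of those genes was 0.17. Nfkbia had the largest, 0.39, above that of 90.9% of these genes. Rel followed at 0.27, a value that 1 library made: ethanol 2 held 72.5 CPM, and the other 8 libraries 124 ± 7.05 CPM (SD, n = 8). In ethanol 2 a deviation as low as that of Rel was seen in 11.9% of the 8477 genes.

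The comparison of ethanol with saline asked whether exposure in the first days of life left these genes at another level in adolescence. No gene of the 10 passed the threshold, and neither did any of the other genes tested (0 of 13067, 0.0%, edgeR's quasi-likelihood F test with Benjamini-Hochberg adjustment at 0.05). Adjusted p ran from 0.963 to 0.977 for the 10 genes, and 6 of them had a fitted log2 fold change above 0 and 4 below it. None had an unadjusted p under 0.05 in this fit, where 386 of 13067 genes (2.95%) did. Under other settings (edgeR's test unless named) the unadjusted p of Nfkbia ran from 0.00795 without saline 3 to 0.303 without saline 1 and ethanol 2. Saline 3 was its highest saline mouse. The unadjusted p of Nfkbia was 0.0182 with age cohort as covariate, 0.0193 with the library-name suffix as covariate and 0.0484 with DESeq2. With fewer libraries it was 0.0277 without ethanol 4, 0.0326 in the second suffix alone, 0.0432 in younger mice alone and 0.0435 without ethanol 3. Higher values were 0.0920 in the first suffix alone, 0.1025 in older mice alone and 0.126 with limma-voom. It was 0.184 with the replicate number as a block, 0.213 without ethanol 2 and 0.227 without ethanol 1. The adjusted p of Nfkbia was 0.793 or more in all ethanol fits run across all genes. The median absolute log2 fold change of the 10 genes was 0.08, and that of the 8477 genes with at least 10 CPM was 0.09. All 10 intervals lay within a 2-fold change in either direction, and 8 of them within 1.5-fold, so larger differences than these lie outside the intervals of the fit. In sorted cells measured in bulk, fewer cells with a transcript and less RNA per cell cannot be told apart.

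**Figure D2:**
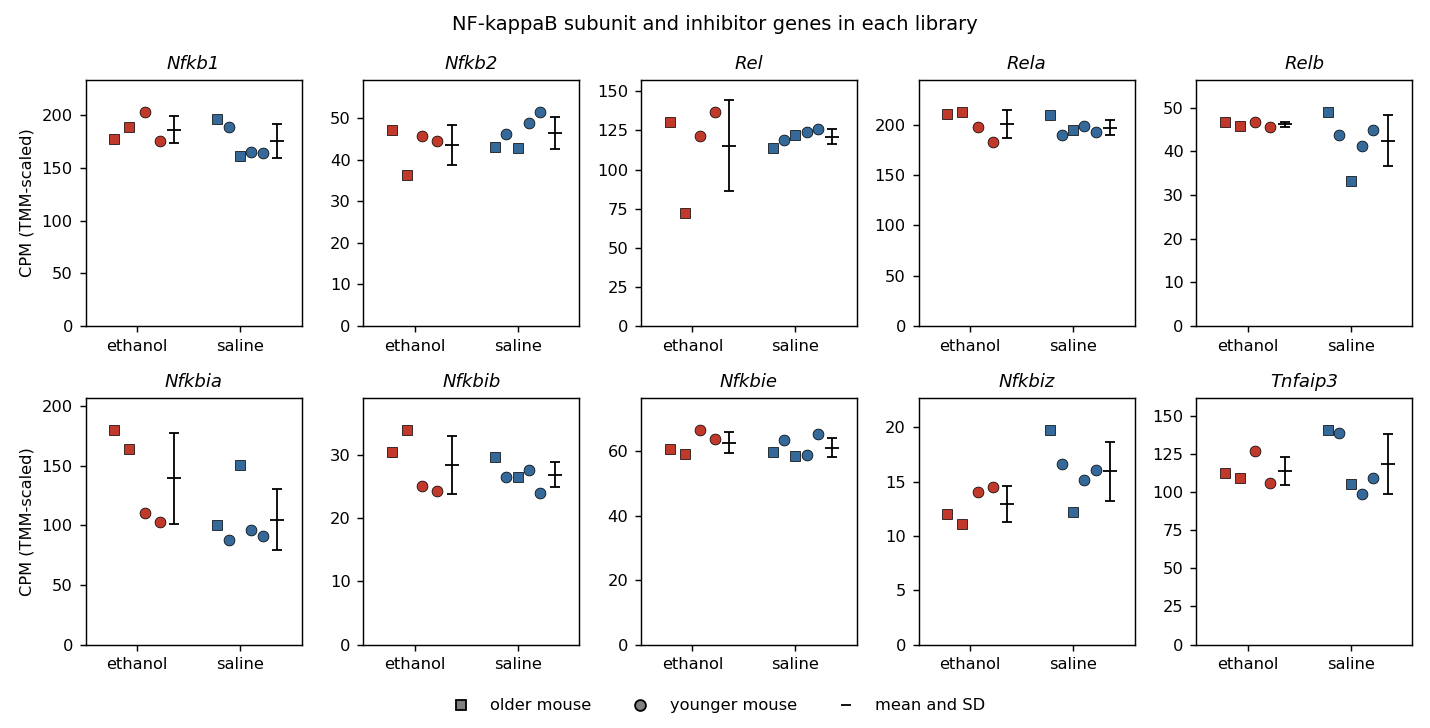
CPM of each gene in each library, ethanol mice left and saline mice right, with squares for older and circles for younger mice and a bar for the mean and SD of each treatment group. The groups overlap for all 10 genes, Rel is low in 1 ethanol library at 72.5 CPM, and Nfkbia is high in 3 older mice.

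Among the subunits, Rela had 211, 213, 198 and 183 CPM in ethanol mice, against 209.9, 190.2, 195, 199 and 193 CPM in saline mice. The means, 201 ± 13.9 (SD, n = 4) and 197 ± 7.64 CPM (SD, n = 5), gave a log2 fold change of 0.03 ± 0.07 (SE), with a 95% interval of -0.13 to 0.18. The ethanol mice covered the whole range of the saline mice. For Nfkb1, 177, 188, 203 and 175 CPM in ethanol mice stood against 196, 189, 161, 165 and 164 CPM in saline mice, a log2 fold change of 0.09 ± 0.09. The 3 lowest values were saline mice, and saline 1 and saline 2 lay among the ethanol mice.

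Rel had 130.3, 72.5, 122 and 137 CPM in ethanol mice, against 114, 119, 122, 124 and 126 CPM in saline mice. Both the highest and the lowest value were in ethanol mice. The log2 fold change of Rel was -0.07 ± 0.15, and without ethanol 2 it was 0.10. Relb had 46.6, 45.9, 46.8 and 45.6 CPM in ethanol mice, against 49.1, 43.7, 33.3, 41.2 and 44.9 CPM in saline mice. The ethanol mice lay close together (46.2 ± 0.556 CPM, SD, n = 4), and saline 3 was the low library. The log2 fold change of Relb was 0.12 ± 0.11, and 0.05 without saline 3. Nfkb2 had 47.3, 36.4, 45.8 and 44.5 CPM in ethanol mice, against 43.1, 46.2, 42.7, 48.8 and 51.5 CPM in saline mice, with a log2 fold change of -0.10 ± 0.10. Without ethanol 2, its lowest library, the log2 fold change of Nfkb2 was -0.02. In the annotation, Nfkb2 shares 531 exon bases with the antisense gene AC114539.1 and 299 with the antisense gene Psd. The counts do not list AC114539.1 under that name, and whether reads were counted by strand is not stated.

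Among the inhibitors, Nfkbia had the largest difference between the treatments. It stood at 179.7, 164, 110.2 and 103 CPM in ethanol mice, against 100.03, 87.3, 150.3, 95.8 and 90.7 CPM in saline mice. The 2 highest libraries were ethanol 1 and ethanol 2, saline 3 came next, and ethanol 3 and ethanol 4 lay just above the other saline mice. The means were 139 ± 38.4 CPM in ethanol mice (SD, n = 4) and 105 ± 25.9 CPM in saline mice (SD, n = 5), a log2 fold change of 0.41 ± 0.21 (SE) with a 95% interval of -0.05 to 0.87. The unadjusted p of edgeR's quasi-likelihood test was 0.0739 and the adjusted p 0.963, and the exact two-sided permutation test over the 126 splits of the 9 mice gave p = 0.143, where the smallest p it can give is 0.00794. Under that permutation test none of the 10 genes had a p under 0.05, where 4.71% of all genes tested did. Neuronal markers, with Kif5a the most abundant, summed to 75.3 to 292 CPM in ethanol mice and 3.64 to 241 CPM in saline mice. Astrocyte markers summed to 62.4 to 179 CPM in ethanol mice and 4.03 to 158 CPM in saline mice. All 7 tested genes of each list had a log2 fold change above 0 (median 0.36 for neurons and 0.66 for astrocytes), none passed the threshold, and their part in the level of Nfkbia was not tested. Within the older mice alone the log2 fold change of Nfkbia was 0.46, and within the younger mice alone 0.22. By edgeR's test the unadjusted p was 0.1025 and 0.0432, and with Benjamini-Hochberg adjustment 0.988 and 0.9996. In the younger mice alone 362 of 13490 genes had an unadjusted p under 0.05.

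Nfkbiz encodes IkB-zeta, an inducible nuclear IkB protein that can also turn on secondary response genes. It had 12.1, 11.1, 14.0 and 14.5 CPM in ethanol mice, against 19.7, 16.6, 12.2, 15.1 and 16.1 CPM in saline mice. Of the ethanol mice, 2 were below the lowest saline mouse and none was above the highest. The log2 fold change was -0.30 ± 0.15 with a 95% interval of -0.63 to 0.02 (unadjusted p 0.0654 and adjusted p 0.963 by edgeR's quasi-likelihood test with Benjamini-Hochberg adjustment). Without saline 1 and ethanol 2, its highest and lowest libraries, the log2 fold change of Nfkbiz was -0.15. In every one of the 23 refits it lay below 0, from -0.47 to -0.15, and none passed the threshold after adjustment.

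Tnfaip3 encodes A20, a ubiquitin-editing enzyme that shuts off signalling upstream of the kinase complex. Its values were 112, 109, 127 and 106 CPM in ethanol mice, against 140.3, 139, 105, 98.7 and 109 CPM in saline mice, and the saline range enclosed the ethanol range. The log2 fold change was -0.06 ± 0.12, and 0.01 without saline 1. Nfkbie, the gene of IkB-epsilon, a slower feedback inhibitor, had 60.8, 59.2, 66.5 and 63.9 CPM in ethanol mice, against 59.8, 63.4, 58.6, 58.8 and 65.4 CPM in saline mice. It was the flattest of the inhibitors, with a log2 fold change of 0.03 ± 0.08 and an interval of -0.13 to 0.20. Nfkbib, the gene of IkB-beta, had 30.5, 34.0, 25.1 and 24.3 CPM in ethanol mice, against 29.7, 26.6, 26.6, 27.7 and 24.1 CPM in saline mice. Its log2 fold change was 0.08 ± 0.12, and -0.02 without ethanol 2. In the annotation, Nfkbib shares 314 exon bases with the antisense gene Ccer2 and 42 with the antisense gene Sirt2. The counts do not list Ccer2 under that name.

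Across the 10 genes, none had ethanol and saline mice that did not overlap, a pattern found in 168 of the 13067 genes tested (1.29%). As a share of the inhibitor transcripts per kb, Nfkbia made up 55.6 ± 6.93% in ethanol mice (SD, n = 4) and 48.6 ± 6.67% in saline mice (SD, n = 5). Rela made up 44.4 ± 2.70% of the subunit transcripts in ethanol mice and 44.7 ± 1.49% in saline mice.

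**Figure D3:**
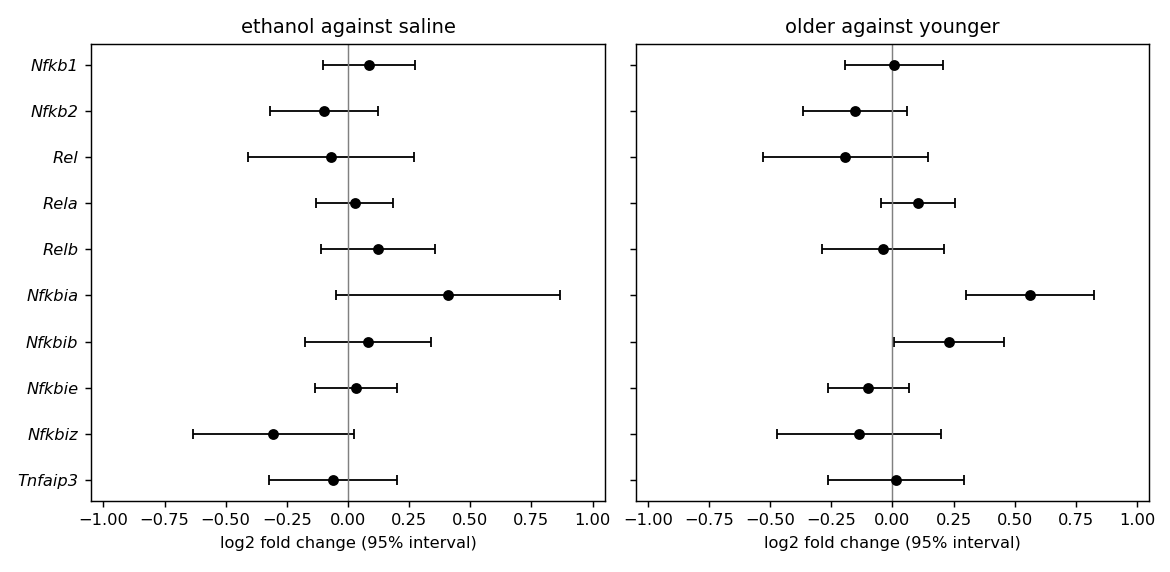
Log2 fold change of each gene with its 95% interval from edgeR's fit, for ethanol against saline and for older against younger mice. All intervals of ethanol against saline cross 0, and the intervals of Nfkbia (0.30 to 0.82) and Nfkbib (0.01 to 0.46) lie above 0 for older against younger mice, where neither gene passed the threshold after adjustment over all genes.

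Both treatments were present in both age cohorts, and older mice were compared with younger mice with treatment as a covariate. Again none of the 10 genes passed the threshold, nor did any of the 13067 genes tested (0 of 13067, 0.0%, edgeR's quasi-likelihood test with Benjamini-Hochberg adjustment), with adjusted p from 0.973 to 0.995 for the 10 genes. Before adjustment, 2 of the 10 genes had a p under 0.05, both higher in older mice (Nfkbia and Nfkbib), where 372 of 13067 genes (2.85%) had such a p and 143 (1.09%) had it in the higher direction. The median absolute log2 fold change was 0.12 for the 10 genes and 0.09 for the 8477 genes with at least 10 CPM. No gene of the 10 had cohorts that did not overlap, a pattern in 162 genes (1.24%).

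Nfkbia had 179.7, 164, 100.03 and 150.3 CPM in older mice, against 110.2, 103, 87.3, 95.8 and 90.7 CPM in younger mice. Of the older mice, 3 were above every younger mouse, and saline 1, the mouse aged 36 days, lay among the younger mice. The means were 149 ± 34.6 CPM in older mice (SD, n = 4) and 97.4 ± 9.28 CPM in younger mice (SD, n = 5), a log2 fold change of 0.56 ± 0.12 (SE, 95% interval 0.30 to 0.82). This was the second smallest p of all 13067 genes (unadjusted p 0.000686) with an adjusted p of 0.973 by edgeR's quasi-likelihood test. The exact two-sided permutation test, which left treatment out, gave p = 0.0238 with no adjustment. The log2 fold change was 0.68 within the ethanol mice alone and 0.46 within the saline mice alone. Without saline 1 it was 0.70, with an adjusted p of 0.113. Without both saline 1 and ethanol 2 it was 0.73 with an adjusted p of 0.00252, and Nfkbia was then 1 of 3 genes past the threshold among 13247 (0.0226%). The older mice of that fit were ethanol 1 and saline 3 alone, both aged 35 days. Saline 1, the older mouse that lay among the younger mice, was left out of it. With no filter on low counts the adjusted p of Nfkbia was 0.0012, when 97 of 23832 genes (0.407%) passed. The summed neuronal and astrocyte markers were on average lower in older mice, with ranges that overlap. Neuronal markers, with Kif5a the most abundant, summed to 3.64 to 158 CPM in older mice and 108 to 292 CPM in younger mice. All 7 tested had a log2 fold change below 0 (median -0.95). Astrocyte markers summed to 4.03 to 96.9 CPM in older mice and 59.0 to 179 CPM in younger mice, and all 7 tested lay below 0 (median -0.90). None of these 14 genes passed the threshold, saline 1 was the lowest library for both sums, and their part in the level of Nfkbia was not tested. In all 20 refits of the cohorts the log2 fold change lay above 0, from 0.46 to 0.73, and adjusted p from 0.0012 to 1.00.

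**Figure D4:**
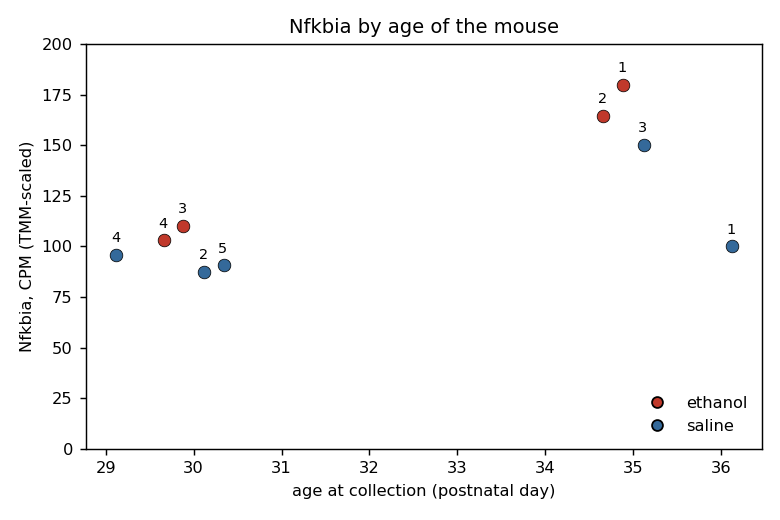
Nfkbia in CPM against the age of the mouse in postnatal days, with ethanol and saline mice marked and numbered by replicate; points of the same age are offset sideways. The 3 mice aged 35 days lie at 150.3 to 179.7 CPM, and the mouse aged 36 days lies at 100.03 CPM beside the younger mice at 87.3 to 110.2 CPM.

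By exact age, the 3 mice aged 35 days (ethanol 1, ethanol 2 and saline 3) had 150.3 to 179.7 CPM of Nfkbia, and the other 6 mice 87.3 to 110.2 CPM. Nfkbiz ran the other way, with 11.1 to 12.2 CPM in these 3 mice and 14.0 to 19.7 CPM in the other 6. The groups did not overlap for these 2 of the 10 genes, a pattern found in 390 of the 13067 genes tested (2.98%), and this grouping was chosen after the values were seen. The library names in the labels end in a suffix, and these 3 mice share theirs with saline 4, aged 29 days, in which Nfkbia was at 95.8 CPM and Nfkbiz at 15.1 CPM. With the suffix as a covariate the log2 fold change of Nfkbia between the cohorts was 0.62, a value that rests on saline 4 as the only younger mouse of a suffix with both cohorts, since saline 1 has a suffix of its own. The RNA integrity numbers of the 3 mice were 9.9, 9.2 and 9.8, within the range of the other 6 mice, 9.0 to 9.9. Of each suffix shared by both treatments, the first holds saline mice of both cohorts and older ethanol mice, and the second holds younger mice only.

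Genes that respond to tissue dissociation also varied between these libraries. The 12 dissociation and immediate early genes summed to between 956 and 1714 CPM in older mice and between 845 and 1619 CPM in younger mice. Their sum was 1502 CPM in ethanol 1, 1714 CPM in ethanol 2 and 1239 CPM in saline 3, and 1619 CPM in saline 4, where Nfkbia was low. Dusp1, an early phosphatase gene, had 43.2, 32.5 and 27.0 CPM in the 3 mice aged 35 days, 24.5 CPM in saline 4, and 6.99 to 16.7 CPM in the other mice. Btg2, the most abundant gene of the list, had 414, 476 and 364 CPM in the 3 mice aged 35 days. It had 329 CPM in saline 4 and 253 to 327 CPM in the other mice. Of the 11 genes of this list that were tested, none passed the threshold for older against younger mice. Before adjustment, 2 had a p under 0.05 by edgeR's test (Atf3 and Btg2, both higher in older mice), as did 2.85% of all genes tested. Of the 11 genes, 9 had a log2 fold change above 0, and the median was 0.32, against -0.02 over all genes tested. Without ethanol 3 the median of the list was -0.04. The part of dissociation in the level of Nfkbia was not tested.

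The other members differed less between the cohorts. Nfkbib had 30.5, 34.0, 29.7 and 26.6 CPM in older mice, against 25.1, 24.3, 26.6, 27.7 and 24.1 CPM in younger mice, a log2 fold change of 0.23 ± 0.10 with an unadjusted p of 0.0447 and an adjusted p of 0.973 by edgeR's quasi-likelihood test. It was 0.18 without ethanol 2, its highest library. Rela had 211, 213, 209.9 and 195 CPM in older mice, against 198, 183, 190.2, 199 and 193 CPM in younger mice, a log2 fold change of 0.10 ± 0.07. Nfkbie had 60.8, 59.2, 59.8 and 58.6 CPM in older mice, against 66.5, 63.9, 63.4, 58.8 and 65.4 CPM in younger mice, and its log2 fold change was -0.10 ± 0.07. The exact two-sided permutation test of the cohorts was added after the data were seen, and unlike edgeR's test it left treatment out. With no adjustment its p was 0.0317 for Rela, 0.0397 for Nfkbib and 0.0476 for Nfkbie. With Nfkbia these are 4 of 10 genes with a p under 0.05 in that test, where 613 of 13067 genes (4.69%) had one, and the 10 genes share the same 9 libraries.

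Rel averaged 109.6 ± 25.6 CPM in older mice (SD, n = 4) and 126 ± 6.88 CPM in younger mice (SD, n = 5), and its log2 fold change, -0.19 ± 0.15, was -0.03 without ethanol 2. Nfkb2 averaged 42.4 ± 4.48 CPM in older mice and 47.4 ± 2.80 CPM in younger mice, with a log2 fold change of -0.15 ± 0.10 that was -0.09 without ethanol 2. For Nfkb1, Relb and Tnfaip3 the log2 fold change lay between -0.04 and 0.01. For Nfkbiz it was -0.14 ± 0.15, with -0.34 without saline 1, the mouse aged 36 days and the highest of the 9, and -0.03 without saline 3.

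Whether the difference between ethanol and saline depended on age was tested as an interaction. None of the 10 genes passed the threshold and none of the 13067 genes did (0.0%, edgeR's quasi-likelihood test with Benjamini-Hochberg adjustment), and none of the 10 had an unadjusted p under 0.05, where 423 genes (3.24%) did. The interaction of Nfkbia was 0.24 ± 0.24 on the log2 scale, that of Nfkbib, the highest of the 10, 0.28 ± 0.19, and that of Nfkbiz, the lowest, -0.31 ± 0.30. Each cohort holds 2 ethanol mice, and without ethanol 1 the interaction rested on ethanol 2 alone for older ethanol mice. In that fit 848 of 13343 genes (6.36%) passed, among them Rel with a log2 value of -0.74 and an adjusted p of 0.0228 by edgeR's quasi-likelihood test, and without ethanol 2 the value for Rel was 0.07.

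The other genes of the pathway were read from 4 lists, of which no gene passed the threshold in either comparison. Of 25 kinase and adaptor genes, which carry the signal from receptors to IkB, 24 were tested, none passed the threshold, 9 had a log2 fold change above 0 and 15 below it, and the median was -0.05, against -0.00067 over all genes tested. The 3 most abundant were Irak1, a kinase below Toll-like and interleukin 1 receptors, Ikbkb, the kinase that marks IkB, and Rbck1, a subunit of the linear ubiquitin ligase. Ikbkb averaged 156 ± 12.5 CPM in ethanol mice (SD, n = 4) and 172 ± 15.6 CPM in saline mice (SD, n = 5), a log2 fold change of -0.14 ± 0.09, and the values for Irak1 and Rbck1 were -0.11 ± 0.09 and 0.00085 ± 0.09. The 2 smallest p-values of this list belonged to Tirap, a Toll-like receptor adaptor gene, at 46.3 ± 2.47 CPM in ethanol mice and 40.5 ± 2.23 CPM in saline mice, and to Tab3, a partner of the kinase TAK1, at 17.0 ± 2.59 CPM in ethanol mice and 19.6 ± 1.51 CPM in saline mice. Their adjusted p was 0.963 each by edgeR's test.

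All 14 genes of other IkB proteins and negative regulators were tested, none passed, 10 lay above 0 and 4 below it, and the median was 0.03, or -0.03 without ethanol 2. Itch, a ubiquitin ligase, Tax1bp1, its adaptor in the A20 complex, and Cyld, a deubiquitinase, were the most abundant, with log2 fold changes of -0.08 ± 0.09, 0.05 ± 0.09 and 0.01 ± 0.10. Otulin, which removes linear ubiquitin chains, had 46.1, 65.1, 48.7 and 48.4 CPM in ethanol mice, against 40.0, 41.8, 44.2, 43.5 and 44.5 CPM in saline mice. All 4 ethanol mice were above the 5 saline mice. Treatment groups that did not overlap, in either direction, were found in 1.29% of all genes tested. The log2 fold change of Otulin was 0.28 ± 0.11 with an unadjusted p of 0.0224 and an adjusted p of 0.963 by edgeR's quasi-likelihood test. Without ethanol 2, its highest library, it was 0.15 (unadjusted p 0.0723), and 0.13 without saline 1 and ethanol 2. Nkiras2, a small GTPase-like binder of IkB, averaged 38.4 ± 5.39 CPM in ethanol mice and 34.2 ± 1.22 CPM in saline mice.

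Of 29 target genes of NF-kappaB, 22 had enough counts to be tested and 7 did not, with Cxcl1 at 0 in all 9 libraries. None passed, 10 lay above 0 and 12 below it, and the median was -0.01 for ethanol against saline and 0.05 for older against younger mice. Cd83, an immune surface protein gene, averaged 298 ± 80.5 CPM in ethanol mice and 285 ± 44.5 CPM in saline mice, and Icam1, an adhesion molecule gene, 262 ± 17.1 CPM in ethanol mice and 239.6 ± 23.9 CPM in saline mice. Cflar, which encodes the apoptosis inhibitor c-FLIP, averaged 132 ± 8.66 CPM in ethanol mice and 140.5 ± 11.8 CPM in saline mice. Il6, the interleukin 6 gene, had the smallest p of the list, at 5.09 ± 1.17 CPM in ethanol mice and 7.37 ± 0.827 CPM in saline mice, with a log2 fold change of -0.52 ± 0.19 and an adjusted p of 0.963 by edgeR's quasi-likelihood test. Ier3, an early response gene, averaged 6.25 ± 1.66 CPM in ethanol mice and 8.59 ± 1.66 CPM in saline mice.

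Of the 12 dissociation and immediate early genes, 11 were tested for ethanol against saline, none passed, 8 lay above 0 and 3 below it, and the median was 0.23, or 0.02 without ethanol 2. Btg2, an antiproliferative early gene, averaged 375 ± 86.1 CPM in ethanol mice and 298 ± 46.7 CPM in saline mice, with a log2 fold change of 0.33 ± 0.16 and an adjusted p of 0.963 by edgeR's quasi-likelihood test. It was 0.19 without ethanol 2 and 0.16 without saline 1 and ethanol 2. Jun, a subunit of the AP-1 factor, averaged 336 ± 119.7 CPM in ethanol mice and 328 ± 122 CPM in saline mice, Zfp36, which encodes an RNA decay factor, 250.3 ± 75.0 CPM in ethanol mice and 238 ± 86.6 CPM in saline mice, and Dusp1 24.9 ± 16.1 CPM in ethanol mice and 16.0 ± 9.09 CPM in saline mice.

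The genes with the pattern most like that of Nfkbia over the 9 libraries were found by Pearson's r of log2 CPM among 8029 genes, those of the 8477 with at least 10 CPM that match the annotation and are neither pseudogenes nor named only as Gm or Rik models. They were Sgk1 (r = 0.97), Polr3f (0.92), Tagap (0.92) and Ormdl3 (0.91). Sgk1 had 1163, 1108, 838 and 802 CPM in ethanol mice, against 707, 730.1, 986, 752 and 783 CPM in saline mice, and like Nfkbia it was highest in the 3 mice aged 35 days. For Rela, the most abundant subunit gene in CPM, they were Il10rb (0.96), Rab7 (0.95), Prkar1a (0.95) and Magt1 (0.95). These values describe 9 libraries that share treatment, age and preparation, and the highest r among so many genes is high by selection.

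**Figure D5:**
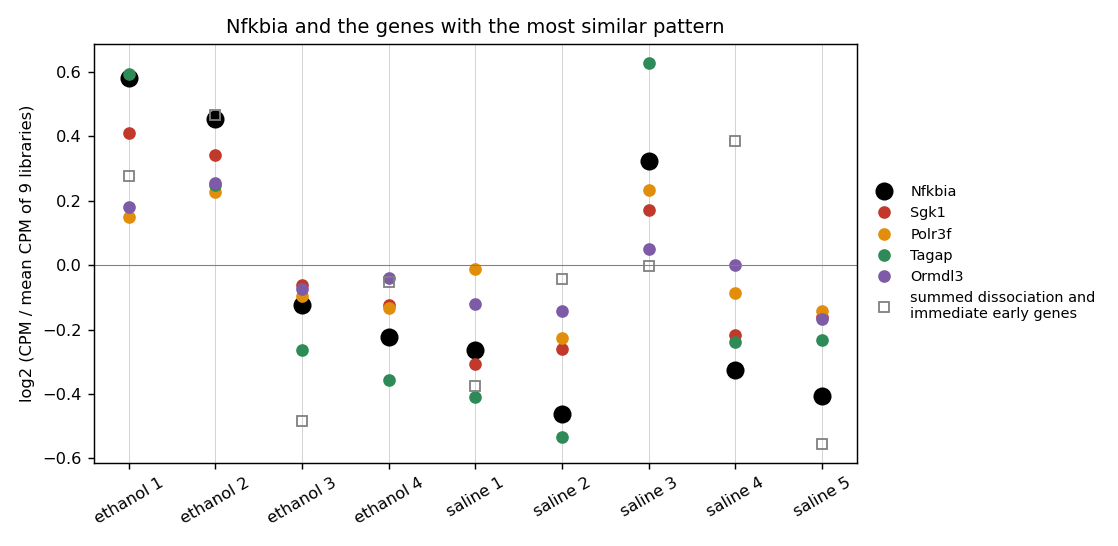
Log2 ratio of CPM in each library to the mean CPM of the 9 libraries, for Nfkbia (large black points), the 4 genes with the most similar pattern (coloured points) and the summed dissociation and immediate early genes (open squares). Nfkbia and Sgk1 are highest in ethanol 1, ethanol 2 and saline 3, and the summed dissociation genes are also high in saline 4, where Nfkbia is low.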

How the data were processed

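A single table of counts was deposited by the authors, giving unnormalized reads for each gene symbol across the 9 libraries, and all its columns were used. Per the submitters' processing notes, the tools were HTSeq 0.6.1, STAR 2.4.2a and Trimmomatic 0.32 and the build was GRCm38.p4. The annotation release, the settings and any use of strand are not stated.

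Counts were filtered with edgeR's filterByExpr (minimum count 10, minimum total 15), which left 13067 genes, and TMM size factors (trimmed mean of M values) gave CPM. Tests were edgeR 4.0.16's robust quasi-likelihood F test (R 4.3.3), with Benjamini-Hochberg adjustment over all genes at a threshold of 0.05. SE and 95% intervals were derived from each F statistic. Ethanol was compared with saline without covariates, and older with younger mice with treatment as covariate. Exact two-sided permutation tests used all 126 splits and no covariate (numpy 2.4.6). The procedure was run on simulated counts with changes put in, and the check was on the direction of the fitted changes. That check does not show that differences as small as those reported above would be found. Each library is 1 mouse, so mouse and preparation cannot be told apart.

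The 10 genes and the lists were chosen with earlier results of these data known. All 10 were named, and from each of the 4 pathway lists the 3 genes of highest mean CPM and the 2 of smallest p for ethanol. The single values of Otulin, Sgk1, Dusp1 and Btg2, the naming of Atf3, and the grouping by exact age were chosen after the values were seen. Lengths and positions came from GENCODE M21, promoters from RefSeq. The value of 1 marker gene is not reported here.

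Alternatives were DESeq2 1.42.0, limma-voom (limma 3.58.1) with sample weights, relative log expression (RLE) scaling, no filter, a filter of 5 CPM in 4 libraries, leaving out libraries, covariates (age, library-name suffix, sorted cells), single cohorts or treatments, and the replicate number as a block. Further ones were added after the data were seen: the block for the interaction, each suffix alone, the permutation test of age, and union exon length.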

Additional observations from a re-analysis of the deposited data

Results flagged for a closer look

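In 40 groups of values (each gene in the ethanol, saline, older and younger mice), the highest and the lowest mouse were compared with the rest of their group by Dixon's ratio, which chance passes in about 1 group in 20. It was passed in 2 groups. Nfkbia in saline mice was at 150.3 CPM in saline 3, above 87.3 to 100.03 CPM in the other 4 saline mice. Nfkbiz in older mice was at 19.7 CPM in saline 1, above 11.1 to 12.2 CPM in ethanol 1, ethanol 2 and saline 3. Saline 3 was aged 35 days, like ethanol 1 and ethanol 2, in which Nfkbia was at 179.7 and 164 CPM. Saline 1 was the mouse aged 36 days, whose library also had the lowest sums of neuronal and astrocyte markers, 3.64 and 4.03 CPM. The part of these measures in the levels of Nfkbiz and Nfkbia was not tested.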

How the results depend on the processing

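The count of genes past the threshold was 0 under every alternative for ethanol against saline. It was 97 with no count filter and 3 without saline 1 and ethanol 2 for older against younger mice, and for the interaction 1 with DESeq2 and from 0 to 848 with 1 library left out. The cause was not tested. Mean CPM moved by less than the spread between mice under RLE scaling, plain library sizes and without saline 1 and ethanol 2. DESeq2 and limma-voom also passed 0 genes for ethanol and for age, with 435 and 512 genes at an unadjusted p under 0.05 for ethanol and 451 and 439 for age. For ethanol against saline, apart from leaving out 1 library, 137 of 150 recomputed values of the 10 genes kept the direction, as did 229 of 266 of the named pathway genes, and all sign changes were of values that did not pass. The log2 fold changes with a turned sign were the following. With limma-voom they were 0.032 for Rel, 0.024 for Tnfaip3, -0.012 for Rbck1, -0.0027 for Tax1bp1, -0.084 for Cd83, -0.14 for Jun and -0.025 for Zfp36. Without saline 1 and ethanol 2 they were 0.077 for Rel, 0.024 for Tnfaip3, -0.0066 for Rbck1, -0.024 for Tax1bp1, -0.092 for Cd83, -0.27 for Jun and -0.10 for Zfp36. In younger mice alone they were 0.068 for Rel, -0.030 for Rela, -0.084 for Nfkbib, 0.0067 for Tnfaip3, -0.076 for Tax1bp1, -0.031 for Nkiras2, -0.17 for Cd83, -0.51 for Jun, -0.38 for Zfp36 and -0.31 for Dusp1, and in older mice alone -0.044 for Rbck1 and -0.0054 for Cyld. Within the second suffix they were 0.075 for Rel, -0.011 for Rela, -0.039 for Nfkbib, -0.13 for Tax1bp1, -0.0077 for Nkiras2, -0.18 for Cd83, -0.16 for Jun and -0.011 for Zfp36, and within the first suffix 0.12 for Tnfaip3, -0.11 for Rbck1, -0.14 for Cyld and -0.067 for Zfp36. With the suffix as covariate they were 0.013 for Tnfaip3, -0.029 for Rbck1, -0.030 for Cyld, -0.061 for Jun and -0.038 for Zfp36, and with age as covariate -0.013 for Jun. Rbck1 was -0.00081 with DESeq2, -0.00082 with RLE scaling and -0.0012 with no count filter.

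For older against younger mice, Nfkb1 and Tnfaip3 turned to -0.035 and -0.016 with limma-voom, to -0.10 and -0.10 without saline 1 and ethanol 2, and to -0.058 and -0.083 in ethanol mice alone, and Nfkbie to 0.0010 with the suffix as covariate. For the interaction without saline 1 and ethanol 2, Nfkb1 was 0.0097, Rel 0.036, Nfkbie 0.00026, Nfkbiz 0.15 and Tnfaip3 0.092.

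With 1 library left out, the log2 fold change of ethanol against saline ranged from -0.16 to 0.10 for Rel, -0.0052 to 0.071 for Rela, -0.021 to 0.15 for Nfkbib, -0.12 to 0.0067 for Tnfaip3, -0.077 to 0.036 for Rbck1, -0.037 to 0.11 for Tax1bp1, -0.027 to 0.092 for Cyld, -0.14 to 0.15 for Cd83, -0.19 to 0.25 for Jun and -0.081 to 0.29 for Zfp36. That of older against younger mice ranged from -0.070 to 0.056 for Nfkb1, -0.16 to 0.079 for Relb and -0.10 to 0.082 for Tnfaip3. The interaction ranged from -0.24 to 0.045 for Nfkb1, -0.092 to 0.25 for Nfkb2, -0.74 to 0.072 for Rel, -0.18 to 0.38 for Relb, -0.029 to 0.56 for Nfkbia, -0.61 to 0.078 for Nfkbiz and -0.36 to 0.060 for Tnfaip3. Where 1 older ethanol mouse remained, it was assumed to vary like the other groups.

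The replicate numbers share no animal or known litter, and same-numbered mice did not deviate together (r across 8477 genes of -0.09, 0.01, -0.17 and -0.08 for numbers 1 to 4). With the replicate number as a block, 0 genes passed for ethanol, age and the interaction, and 240 genes had an unadjusted p under 0.05 for ethanol (386 without it), 801 for age (372 without it) and 268 for the interaction (423 without it). The block turned Rbck1 to -0.025, Jun to -0.14 and Zfp36 to -0.030 for ethanol, Nfkb1 to -0.17 and Tnfaip3 to -0.31 for age, and Rel to 0.051 and Relb to -0.22 for the interaction.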
